A study of Drosophila melanogaster with 2 samples.

Results

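The nuclear pore genes of Drosophila melanogaster were examined for binding of the tagged product of tna (tonalli). They were chosen by symbol: 21 genes whose symbol is Nup followed by a digit, and 6 named singly, Elys, Gp210, Ndc1, Rae1, Sec13 and Mgtor. Mgtor is the spelling in the annotation of Megator, which older lists call Mtor. The resulting 27 genes were set among 13968 protein-coding genes on 7 chromosome arms. Chromatin immunoprecipitation followed by sequencing (ChIP-seq) used an antibody to GFP on whole embryos of the strain tna-GFP, a transgenic line that makes a tna-eGFP fusion from an insertion targeting tna. Embryos were 0 to 24 h old, so all embryonic stages and tissues were pooled, and the 2 biological replicates formed 1 group. Both carried the tagged protein, and an untagged control was not analysed here, so no value below has a background from untagged embryos beside it.

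The nuclear pore complex is the channel through which proteins and RNA cross the nuclear envelope. A scaffold made of the Y complex and the inner ring curves the membrane and carries phenylalanine-glycine (FG) repeat proteins, which fill the central channel and bind transport receptors. Filaments extend from its cytoplasmic face, a basket extends into the nucleus, and membrane proteins anchor the ring. In Drosophila several pore proteins, among them Nup98, Nup153 and Megator, are also known to bind chromatin. The tagged protein, tonalli, is related to SUMO ligases and is known for genetic interactions with the Brahma remodelling complex.

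A gene was called bound when the summit of a peak in the conservative list, the 2580 peaks reproducible between the replicates, lay within 500 bp of any of its annotated transcription start sites. By this rule 9 of the 27 pore genes were bound, or 33.3%, against 18.2% of all protein-coding genes. They were spread over every architectural group but the membrane ring. In the scaffold 4 of 16 genes were bound, Nup75 and Sec13 of the 10 Y complex genes and Nup205 and Nup35 of the 6 inner ring genes. Of the 6 genes of the central channel and the cytoplasmic side, 3 were bound, namely Nup58, Nup358 and Rae1. Of the 3 basket genes, Nup153 and Nup50 were bound and Mgtor was not. Both basket summits lay nearer the start of another gene, CG9784 and Asap, and when a summit counts only for the nearest start the basket has 0 of 3. Neither membrane ring gene, Gp210 or Ndc1, was bound. The groups hold between 2 and 16 genes, so single genes weigh heavily in the shares, and no test was run between them.

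**Figure D1:**
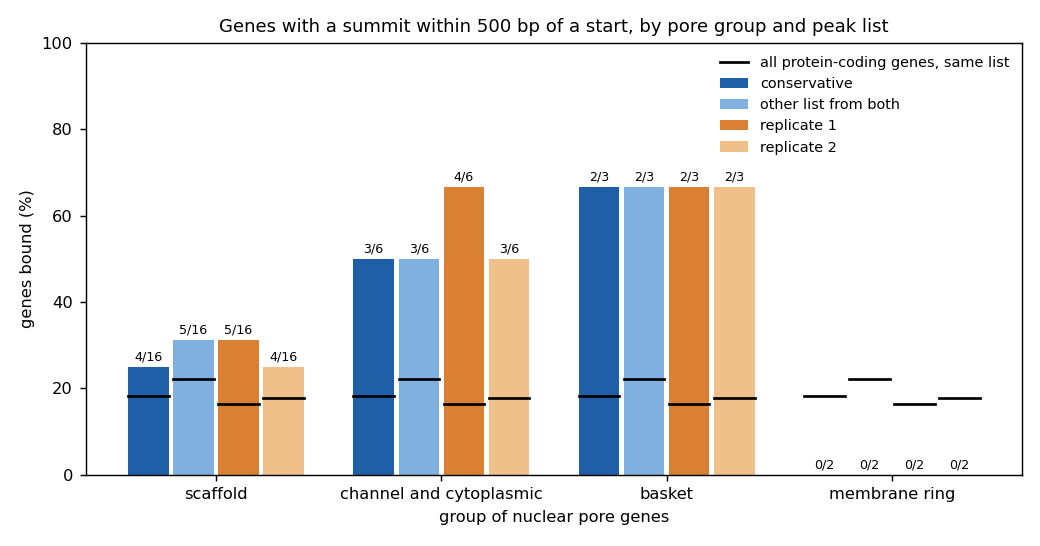
Share of genes bound (y axis, percent) in each architectural group of the nuclear pore, in the conservative list, the other list from both replicates and each replicate's own list (bars, from 0, with counts above them). Black lines mark the share of all protein-coding genes in the same list. Basket genes, whose summits lie nearer other genes' starts, stood at 66.7% and membrane ring genes at 0% in all 4 lists, while the scaffold ranged from 25% to 31.2%.

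The sequences under these peaks hold the letters CGATA, the string recognised by the insulator protein BEAF-32, within 100 bp of the summit in 8 of the 9 bound genes, against 74% of the 2072 peaks at protein-coding starts. The 201 bases around the summit are given on the + strand of dm6, 5′ to 3′, for 3 bound genes that hold the string and whose signals run from the highest of the 9 down to their median (Nup358, chr3R:25249205-25249405, Nup153, chrX:16599088-16599288, and Sec13, chr3R:23355952-23356152). Nup58 (chr3R:19644955-19645155) and Nup205 (chrX:19852021-19852221) are added after their values were seen, to show strings packed within a few bases. Nup35 (chrX:18648070-18648270) is added as the bound gene without CGATA within 100 bp, and Ndc1 (chr3R:23924299-23924499, centred on its start) as an unbound gene with it. Nup75 and Nup50 also hold the string and had signals of 561 and 473, above Nup153 and Sec13, but are not shown. The first 3 genes are therefore not the 3 with the highest signals. Capitals mark CGATA on either strand, except in Nup35, where they mark ATCGAT.
Nup358: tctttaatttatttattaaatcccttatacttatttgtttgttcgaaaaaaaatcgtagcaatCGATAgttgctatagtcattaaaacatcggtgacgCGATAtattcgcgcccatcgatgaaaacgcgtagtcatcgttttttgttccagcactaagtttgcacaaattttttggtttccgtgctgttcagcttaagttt
Nup153: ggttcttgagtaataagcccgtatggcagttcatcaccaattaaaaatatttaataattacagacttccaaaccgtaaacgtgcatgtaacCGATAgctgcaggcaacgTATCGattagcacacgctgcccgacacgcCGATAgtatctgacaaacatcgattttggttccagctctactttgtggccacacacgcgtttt
Sec13: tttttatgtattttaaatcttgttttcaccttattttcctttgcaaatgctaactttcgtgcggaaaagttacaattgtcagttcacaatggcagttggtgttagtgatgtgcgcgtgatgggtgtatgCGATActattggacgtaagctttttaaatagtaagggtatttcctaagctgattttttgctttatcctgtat
Nup58: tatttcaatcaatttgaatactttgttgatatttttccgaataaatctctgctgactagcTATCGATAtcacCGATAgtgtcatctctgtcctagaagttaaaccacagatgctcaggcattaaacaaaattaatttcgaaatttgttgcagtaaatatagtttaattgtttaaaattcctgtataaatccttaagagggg
Nup205: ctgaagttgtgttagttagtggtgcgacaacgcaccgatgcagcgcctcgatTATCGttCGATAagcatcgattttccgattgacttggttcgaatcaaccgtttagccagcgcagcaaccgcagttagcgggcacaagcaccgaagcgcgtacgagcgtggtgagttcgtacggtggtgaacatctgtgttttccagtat
Nup35: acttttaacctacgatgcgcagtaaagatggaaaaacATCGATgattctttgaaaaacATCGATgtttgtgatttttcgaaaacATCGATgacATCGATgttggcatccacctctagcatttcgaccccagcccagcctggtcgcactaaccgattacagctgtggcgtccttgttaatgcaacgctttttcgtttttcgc
Ndc1: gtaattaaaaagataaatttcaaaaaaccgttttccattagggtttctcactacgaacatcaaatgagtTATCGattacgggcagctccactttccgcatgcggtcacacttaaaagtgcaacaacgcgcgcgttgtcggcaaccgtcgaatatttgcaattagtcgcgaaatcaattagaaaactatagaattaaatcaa

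Of the 7 genes shown, Nup358 holds CGATA 2 times, Nup153 3 times and Sec13 1 time, and in Sec13 the match lies 29 bp from the summit. In Nup58 2 of its 3 matches overlap head to head and form the DNA replication-related element (DRE), TATCGATA, the site of the transcription factor Dref. Nup35 instead carries ATCGAT, the middle of the DRE, 4 times, each without the flanking letters that would make CGATA. Ndc1, which was not called, carries 1 CGATA and 1 ATCGAT that overlap, so these letters alone do not separate it from the bound genes.

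The Y complex is the outer scaffold of the pore, and its bound members were Nup75, a core subunit known as Nup85 in vertebrates, and Sec13, a beta-propeller subunit shared with the COPII vesicle coat. At Nup75 (2R, 18164694 to 18167140, - strand) the conservative peak at 18167048 to 18167313 had a signal of 561, rank 97 of 2580, and its summit stood at −51 bp from the start, where negative values are upstream. The replicates gave 269.8 and 296 there, with summits at −34 and −37 bp. Signal is the peak caller's own value and is not on a common scale between lists, so the replicate values are read by rank, here 148 of 2214 and 64 of 2669.

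Sec13 (3R, 23356278 to 23358531, + strand) had its stronger peak at 23355983 to 23356163, with a signal of 266 and rank 612. Its replicate signals were 148 and 122. The summit lay at −226 bp, the farthest of the 9 genes, and at −183 and −229 bp in the replicates. It was only 12 bp from the start of ATPsynCF6, a subunit of the mitochondrial ATP synthase. Sec13 has 2 annotated starts, and −226 bp is counted from the upstream one, at 23356278. A second, weaker peak of signal 107 had its summit at 23356747, inside a coding exon. That is 184 bp downstream of the other start. The q-value of this second peak was above 0.05.

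The other 8 Y complex genes were not called. Nup133, a subunit at the end of the Y stem, came nearest, with a signal of 72.1 in replicate 1, where it was listed, and 44.0 in replicate 2, where it was only ranked, at summits of −57 and 166 bp. IDR, the irreproducible discovery rate, is low for peaks that rank both high and alike in a pair of lists, and the conservative list needs a −log10 IDR of 2.00. Over both replicates Nup133 had 1.64 in the ranked list that holds the conservative peaks and 2.21 in the other. Nup44A, the Seh1 subunit, had its strongest peaks at different starts, 37.1 in replicate 1 and 68.6 in replicate 2. The latter site had a −log10 IDR of 1.63 in the former list and 1.64 in the other. For every uncalled gene the values given are each replicate's own strongest ranked peak within 500 bp of a start, which need not be the same peak.

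The remaining 6, Elys, which tethers the Y complex to chromatin in vertebrates, Nup107, Nup160, Nup98-96, Nup37 and Nup43, stayed between 18.8 and 31.1 in replicate 1 and between 25.0 and 48.7 in replicate 2. Nup98-96 encodes both the FG protein Nup98 and the scaffold protein Nup96. It was counted with the scaffold, and its strongest ranked peaks were 31.1 in replicate 1 and 45.3 in replicate 2, at different sites (332 and −216 bp), the latter nearer the start of mbc.

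In the inner ring, which links the scaffold to the membrane and to the channel proteins, the bound members were Nup205, a large scaffold protein, and Nup35, a membrane-binding subunit. At Nup205 (X, 19852214 to 19859379, + strand) the peak at 19852080 to 19852210 had a signal of 244, rank 709, and signals of 93.0 and 138 in the replicates. The summits stood at −93, −66 and −98 bp. At Nup35 (X, 18648182 to 18649489, + strand) the peak at 18647965 to 18648374 had a signal of 180.4, rank 1163, and signals of 93.8 and 91.5, with summits at −12, −56 and −42 bp. Nup35 thus ranked near the middle of the list and Nup205 above it. Nup205 ranked higher in replicate 2 (553 of 2669) than in replicate 1 (1194 of 2214).

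Nup154, known as Nup155 in vertebrates, Nup188, Nup93-1 and Nup93-2 were not bound. Their strongest ranked peaks had signals of 19.3, 31.6, 22.7 and 46.9 in replicate 1 and 39.0, 39.6, 57.0 and 48.8 in replicate 2. The paralogs Nup93-1 and Nup93-2 were thus both uncalled.

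The central channel trimer of Nup54, Nup58 and Nup62 forms the FG mesh that transport receptors cross. Nup58 (3R, 19645026 to 19646906, + strand) was the only one bound, with the lowest signal of the 9 genes, 142 and rank 1632. The replicates gave 80.7 and 78.3. Its summit at 29 bp lay in an untranslated exon, the only one downstream of a start, with replicate summits at −17 and 42 bp. A second peak overlapping the first had a signal of 9.12 in a coding exon and a q-value above 0.05. Nup54 was listed in replicate 1 alone, with a signal of 54.9 at 84 bp. In replicate 2 its strongest peak, 69.8 at −99 bp, was a different one and was only ranked. In the ranked lists from both replicates its −log10 IDR was 0.56 in the one that holds the conservative peaks and 1.52 in the other. Nup62 had 31.0 and 47.1.

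On the cytoplasmic side, Nup358 builds the filaments and in vertebrates (as RanBP2) acts as a SUMO ligase. It had the highest signal of all pore genes. At Nup358 (3R, 25249348 to 25258672, + strand) the peak at 25249166 to 25249423 reached 627, rank 62 of 2580, and the replicates gave 315 and 303, ranks 88 of 2214 and 55 of 2669. The summits stood at −43, −66 and −48 bp. Nup37, a Y complex gene, ends 247 bp before Nup358 starts, and the summit lies between the genes, with the peak reaching over the start of Nup358.

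Rae1, an mRNA export factor that binds Nup98 (2R, 21658770 to 21660007, - strand), had a peak at 21659972 to 21660115 of signal 206, rank 943, with 102 and 119.7 in the replicates and summits at −51, −51 and −24 bp. Nup214, an FG protein of the filaments, was not bound, with 35.5 and 11.99. The 11.99 was the lowest value of any pore gene in replicate 2. Thus 2 of these 3 cytoplasmic genes were called, in all 4 lists. The gene mbo, which encodes the fly Nup88, is outside the symbol rule, and it was not bound either.

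The basket proteins Nup153 and Nup50 help importins and their cargo at the nuclear face. Nup50 (2R, 8123036 to 8125058, + strand) had a peak at 8122871 to 8123134 of signal 473, rank 159, with 251 and 207 in the replicates. Nup153 (X, 16599241 to 16610459, + strand) had one at 16599082 to 16599324 of signal 458, rank 173, with 248 and 200.3. Their summits lay at −27 bp and −53 bp, and within −51 to −23 bp in the replicates. These 2 genes were close in rank in every list. The conservative summits were 27 bp from the start of CG9784 and −8 bp from that of Asap, nearer than to the basket genes' own starts, so neither call holds when only the nearest start counts.

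Mgtor, the coiled-coil protein that forms the basket fibres, had only ranked peaks, of 26.2 and 45.1. The membrane ring genes showed the same, Gp210 with 35.3 and 43.5 and Ndc1 with 53.3 and 64.1. Both encode proteins that span the nuclear membrane. All 3 lay below each bound gene in each replicate, but signal is part of what the lists select, so this only describes the calls.

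Taking the 9 bound genes together, signals ran from 142 to 627 with a median of 266, against a median of 197 for the strongest peak of all 2541 bound protein-coding genes, and 7 of the 9 were above that median. All 9 were called in both replicates' own lists, as were 65.6% of all bound genes. Summits stood at a median of −51 bp, against −43 bp for all bound genes, and 8 of 9 were upstream of the start, against 77.4%. In replicate 1 the bound genes ranged from 80.7 to 315 and the unbound ones from 18.8 to 72.1. In replicate 2 the ranges were 78.3 to 303 and 11.99 to 69.8. The groups did not overlap in either replicate, but signal is part of what the lists select, so this describes the calls and is no separate evidence for them.

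**Figure D2:**
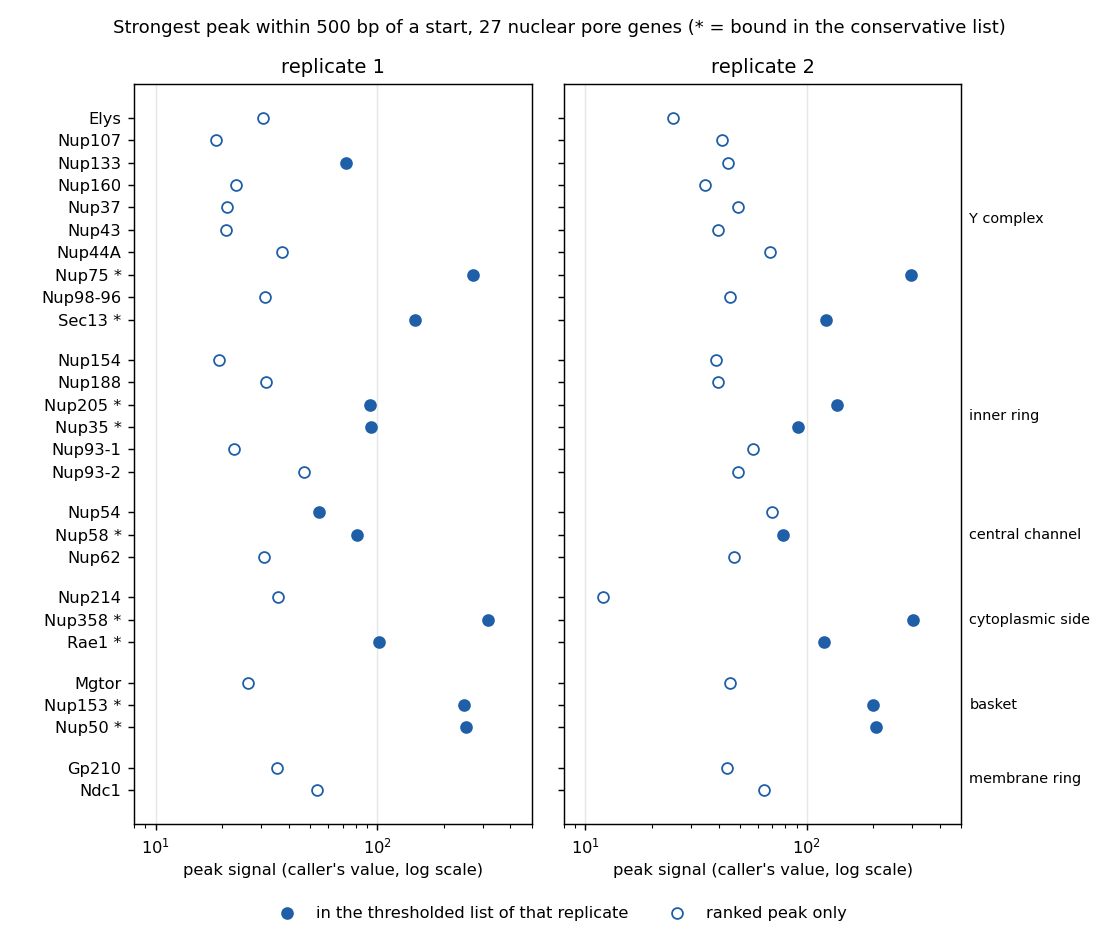
Signal of the strongest peak within 500 bp of a start (x axis, log scale, peak caller's units) for each of the 27 pore genes in replicate 1 and replicate 2, grouped by place in the pore. Filled points are in that replicate's thresholded list, open points are ranked only, and asterisks mark bound genes. In replicate 1 bound genes lie at 80.7 or above and all others at 72.1 or below. In replicate 2 the limits are 78.3 and 69.8. Signal is part of what the lists select, so this split only describes the calls.

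The unbound genes were not without any peak. In the ranked lists, which keep weak and irreproducible peaks, each of the 27 pore genes carried a summit in its 500 bp window, in both replicates together and in each alone, but so did 76.4% of all protein-coding genes in the list from both, 81.3% in replicate 1 and 76.8% in replicate 2. The nearest conservative summit to an unbound pore gene's start was 1.26 kb away at Nup107 and 99.3 kb away at Nup93-2, with a median of 10.2 kb. None lay between 500 and 1000 bp.

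The count of bound pore genes was steady under most rules. It was 10 in the other list from both replicates, which adds Nup133, against 22.2% of all genes. It was 11 in replicate 1, adding Nup133 and Nup54, against 16.4%, and 9 in replicate 2, against 17.7%. Windows of 250 bp and 1000 bp each gave the same 9 genes, against 15.9% and 20.5%. Using only the most upstream start of each gene also gave 9, against 17%.

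Stricter and looser thresholds moved the edge of the list. An IDR limit of 0.05 gave 11, adding Nup133 and Nup44A, against 25.7% of all genes. An IDR limit of 0.001 gave 7, losing Nup35 and Nup58, against 9.45%. Requiring a q-value of at most 0.05 kept all 9, against 13.9%. Requiring the peak interval to cover a start gave 8, losing Nup205, against 14.5%.

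The largest change came from shared promoters. A second protein-coding gene started within 500 bp of 17 of the 27 pore genes, against 30.8% of all protein-coding genes, and in each of the 17 the other start was upstream on the opposite strand. Among the 9 bound genes 5 had such a partner, against 54.7% of all bound genes: Nup153 with CG9784 at 26 bp, Nup50 with Asap at 35 bp, Nup75 with CG42518 at 87 bp and MED9 farther off, Nup205 with pico at 155 bp, and Sec13 with ATPsynCF6 at 214 bp. In all 5 the strongest conservative summit was nearer the partner's start than the pore gene's own. A peak at such a site cannot be assigned to one of the genes.

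When each summit counted only for the protein-coding gene with the nearest start, 5 pore genes stayed bound, against 13.9% of all genes. They were Nup35, Nup358, Nup58 and Rae1, which have no partner, and Sec13. Sec13 stayed only through its second peak in the gene, of signal 107, whose q-value was above 0.05. Each replicate's own list held only the other Sec13 peak. The basket fell to 0 of 3, the scaffold to 2 of 16, and the channel and cytoplasmic genes stayed at 3 of 6.

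Pore genes were called in both kinds of promoter. Of the 17 pore genes with a partner 5 were bound, against 32.2% of all genes with one, and of the 10 without a partner 4 were bound, against 11.9% of all genes without one. Unbound pairs included Elys with Ranbp21, an exportin, at 36 bp, Nup188 with CG13148 at 70 bp and Nup98-96 with mbc at 144 bp.

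**Figure D3:**
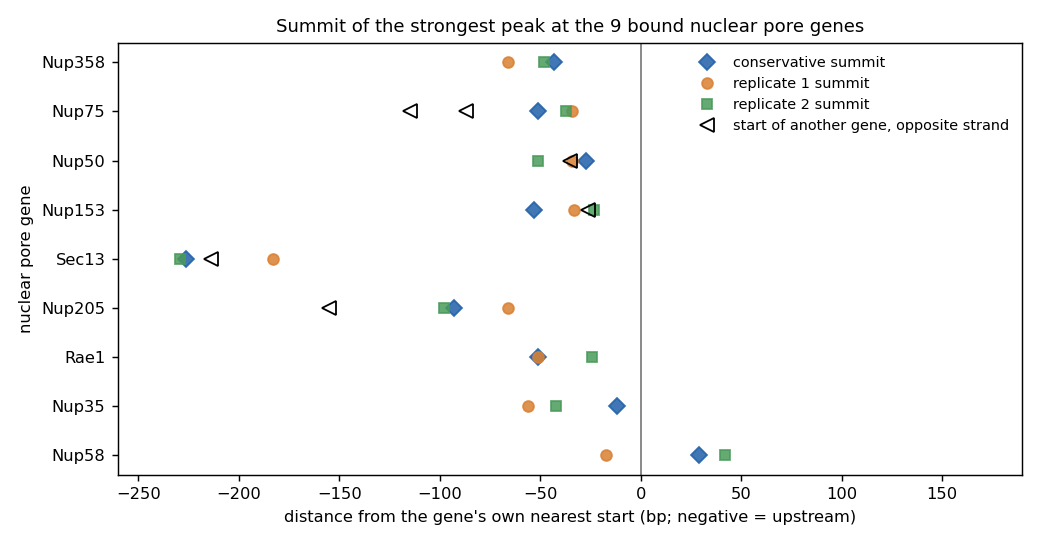
Position of the strongest summit at each of the 9 bound pore genes in the conservative list and in each replicate (x axis, bp from the gene's own nearest start, negative upstream), with open triangles at the start of another protein-coding gene on the opposite strand. Conservative summits stand between −226 and 29 bp, and for 5 genes a triangle lies nearer to the conservative summit than the gene's own start does.

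Motifs were counted on both strands in the stretch from 250 bp before to 50 bp after the most upstream start. CGATA was in the promoters of 8 of the 9 bound and 9 of the 18 unbound pore genes, against 47.4% of all promoters and 80.2% of those of bound genes. TATCGATA, which contains CGATA on both strands, was in 3 of 9 bound (Nup50, Nup58 and Nup75) and 4 of 18 unbound genes (Gp210, Mgtor, Nup188 and Nup54). It was in 9.36% of all promoters and 31% of those of bound genes. Among all promoters with TATCGATA 60.2% were of bound genes, and among the 7 pore genes with it 3 were bound. Among promoters without it 13.8% were of bound genes, and of the 20 pore genes without it 6 were bound. For CGATA, 30.8% of promoters with it were of bound genes, and of the 17 pore genes with it 8 were bound. ATCGAT, which was added after the sequences were seen and lies inside TATCGATA, was in 8 of 9 bound and 7 of 18 unbound pore genes. It was in 23.3% of all promoters and 59.8% of those of bound genes. Of all promoters with ATCGAT 46.7% were of bound genes, and of the 15 pore genes with it 8 were bound. It was absent from Sec13 alone among the bound genes.

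Matches to CGATA within 100 bp of the summit differed in number between the genes. Nup50 and Nup75 held CGATA 5 times each, Rae1 4 times, Nup153 and Nup58 3 times, Nup205 and Nup358 2 times, Sec13 1 time and Nup35 not at all. Within 200 bp CGATA was in all 9, Nup35 included, against 82.7% of peaks at starts. Within 100 bp of the summit TATCGATA was in 3 of the 9, against 27.7% of peaks at starts. Its first base was at −44 bp from the summit in Nup50, −40 bp in Nup58 and 61 bp in Nup75.

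GGTCACAC, the site called Motif 1 of the factor M1BP, was in 0 of 9 bound pore genes' promoters and in those of 4 unbound ones. These were Ndc1, Nup160, Nup43 and Nup93-2. It was in 7.7% of all promoters and 10% of those of bound genes. GAGAG, the string of GAGA factor, was likewise in 0 of 9 bound and 4 of 18 unbound genes, against 29.8% of all promoters and 24.6% of those of bound genes. The counts and percentages that follow keep this order. The E-box CACGTG was in 0 of 9 and 2 of 18, against 4.23% and 5%. The E-box CAGCTG was in 2 of 9 and 4 of 18, against 17.7% and 20.9%. The initiator letters TCAGT were in 4 of 9 and 10 of 18, against 51.6% and 42.9%. TATAAA, the letters of the TATA box, was in 5 of 9 and 11 of 18, against 45.9% and 43.1%. TCAGT and TATAAA were counted at any position in the stretch and on either strand. A match to them therefore need not be an initiator or a TATA box. A match describes the letters present and is not a measured site.

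**Figure D4:**
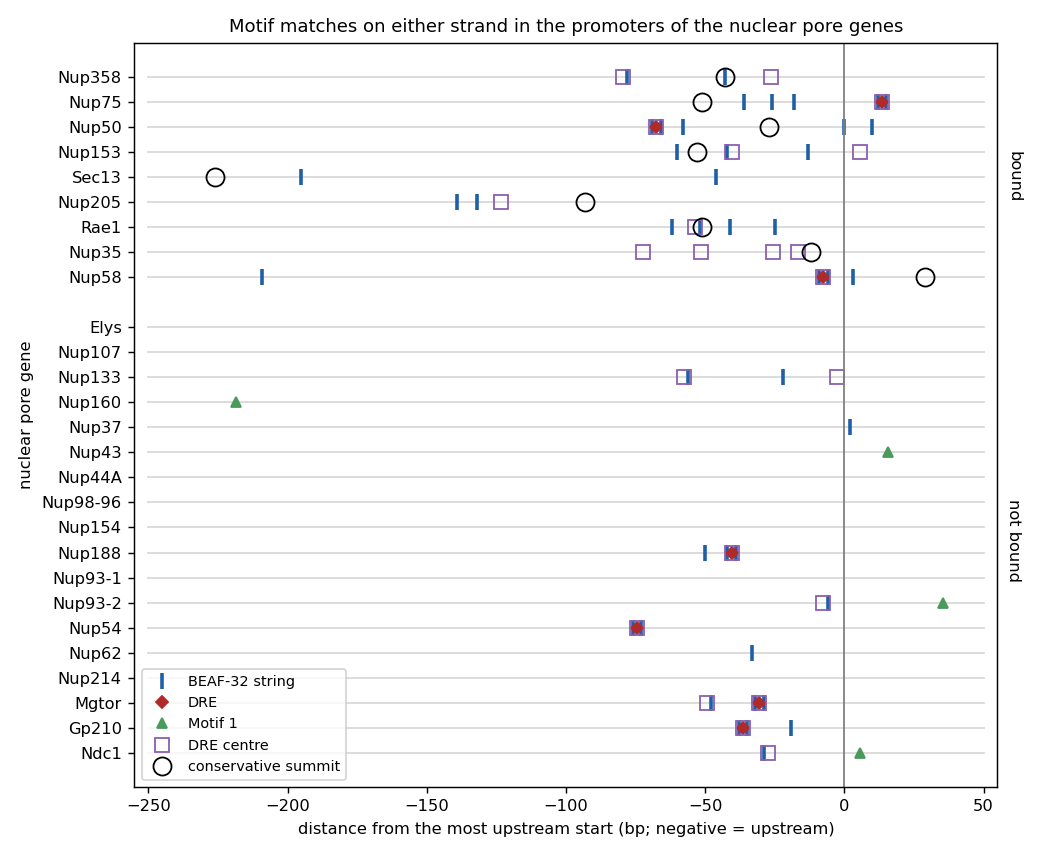
Motif matches in the promoters of the 27 pore genes (x axis, bp from the most upstream start, negative upstream), bound genes above and unbound below, with circles at the conservative summits. The string of BEAF-32 appears in 8 of 9 bound and 9 of 18 unbound genes, the DRE in 3 and 4, its centre in 8 and 7, and Motif 1 in 0 and 4. Of the promoters of all bound genes, 80.2% hold the BEAF-32 string, 31% the DRE, 59.8% its centre and 10% Motif 1. Among all promoters the shares are 47.4%, 9.36%, 23.3% and 7.7%.

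Genes that work with the pore were counted by the same rule, from lists of 51 genes in all, of which 14 were bound, or 27.5%, against 18.2% of all protein-coding genes. Of the importins and exportins 5 of 15 were bound. The exportin emb, the fly CRM1, had the strongest peak, with a signal of 712 and 389.9 and 289.9 in the replicates. That is above every pore gene in the conservative list and replicate 1, and below Nup358 and Nup75 in replicate 2. The SR-protein importin Tnpo-SR had 258, nearer the starts of HemK2 and Snapin, and the importin alpha gene Pen had 147. Kap-alpha1, another importin alpha, had 127.8, nearer CG14104, and was not listed in replicate 1.

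Of the 6 genes of the Ran cycle, which gives transport its direction, 3 were bound: Ntf-2r at 296, Ntf-2, the carrier of Ran into the nucleus, at 224, and RanBP3 at 212. Of 15 mRNA export genes 1 was bound, the RNA helicase gene Hel25E at 158, through a peak nearer the start of Lam. That is 6.67% of the export genes, against 18.2% of all protein-coding genes. An IDR limit of 0.05 gave 4 of the 15, against 25.7% of all genes.

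Of 11 nuclear envelope and lamina genes 4 were bound, or 36.4%, against 18.2% of all protein-coding genes. They were the linker genes klar at 425 and koi at 256, the inner membrane protein gene MAN1 at 180.7, nearer Chi, and the lamin gene Lam at 158. Of 4 pore-associated genes outside the symbol rule only Kr-h2 was bound, at 129, and mbo, Aladin and Ulp1 were not. Of the 14 bound genes 11 were called in both replicates' own lists, as were 65.6% of all bound protein-coding genes. Hel25E and Lam were called through the same peak, so they are not separate calls.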

How the data were processed

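The authors deposited, per the labels and the file headers, peak lists on dm6 from ChIP-seq of 2 biological replicates: a thresholded and a ranked list per replicate, and 2 of each from both. Peak signal is the deposited caller's own value, with no scaling between lists stated. The deposited −log10 values are q-values in the thresholded lists and the irreproducible discovery rate (IDR) in the ranked ones. The deposited summit offset counts bases from the peak start. Which aligner and caller made them is not given in the sources used here. Without read counts in these lists, depth is unknown and no interval was computed. A control library was not analysed here.

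Starts came from Ensembl release 115 and sequence from RefSeq, both in dm6 coordinates. A gene was bound when a conservative summit lay within 500 bp of a start. The conservative list held 2580 peaks, the other list from both 3500, replicate 1 2217 (2214 on the 7 arms) and replicate 2 2669. Every pore gene is named, and related lists name up to 4 bound genes each. The members, groups, lists and motifs were chosen with earlier results of these data known. No contrast exists between samples, so counts stand beside the share of all genes and no test was run. The matching was tested on simulated peaks. Alternatives covered the list, the window, the IDR and q-value thresholds and the assignment to starts. Python 3.11.15, pandas 2.3.3, numpy 2.4.6 and matplotlib 3.10.9 were used.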

Additional observations from a re-analysis of the deposited data

How the results depend on the processing

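Counting a summit only for the nearest start changed the counts most, to 5 pore genes, 2 scaffold genes and 0 basket genes; of 57 alternatives for the pore genes and their groups, the other 54 stayed within 1.5 times. Each replicate alone gave 9 to 11 pore genes, 4 to 5 in the scaffold, 3 to 4 in the channel and cytoplasmic group, 2 in the basket and 0 in the membrane ring. Moving Nup98-96 to the channel group left 4 of 15 and 3 of 7. Of 297 calls of single genes 12 changed, and 18 of the 27 genes kept their call under all 11 alternatives. Nup358, Rae1 and Sec13 stayed bound throughout, but Sec13 not through the same peak. With only the nearest start counted, its call rested on the weaker peak, whose q-value was above 0.05. Around the summit, the DRE was in 2 of 9 windows within 50 bp and in 3 of 9 within 200 bp, and CGATA in 8 and 9. For the related lists and the share of all genes, 18 of 70 values moved. The mRNA export genes ranged from 0 to 4 of 15, importins and exportins from 3 to 9 of 15, and envelope and lamina genes from 2 to 8 of 11. IDR limits of 0.001 and 0.05 gave the ends of these ranges, against 9.45% and 25.7% of all genes. No paired analysis was possible because the samples form 1 group. Depth is unknown, so a gene without a call is not shown to be unoccupied.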

Other observations

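Several conservative peaks lay at the ends of pore genes and not at their starts. Past the end of Nup358, 145 bp away, a peak had a signal of 721, higher than the 627 at the gene's start, and its summit stood at −81 bp from the start of CG11857. A peak of 228 lay 225 bp past the end of Nup153, at −1 bp from the start of mbt, a kinase gene. A peak of 136 lay 178 bp past the end of Nup154, whose own start was not bound, at −13 bp from the start of Art8, an arginine methyltransferase gene. Nup205 had a peak of 202 at 145 bp past its end and an overlapping one of 5.93 at 350 bp, with no protein-coding start within 500 bp of either. Sec13 held a further peak of 99.5 in a coding exon.

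By arm, 3 of 5 pore genes on X were bound, against 21.4% of all genes there, 3 of 9 on 3R, against 18.3%, 3 of 10 on 2R, against 18.8%, and 0 of 3 on 2L, against 17.4%. Of the 9 bound pore genes 8 had a single annotated start, as did 21 of all 27 and 73.5% of all protein-coding genes. Of all genes with a single start, 15.2% were bound.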
